A study of Mus musculus with 18 samples.

Results

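The 33 genes described here carry out DNA replication or drive cells into S phase. They are a listed set, chosen by function, though with earlier results of these data known. Orc1, Orc6, Cdc6, Cdt1 and Gmnn belong to origin licensing, and Mcm2, Mcm3, Mcm4, Mcm5, Mcm6 and Mcm7 to the helicase. Mcm10, Cdc45, Gins1 and Gins2 serve its activation, and Pola1, Prim1, Pold1 and Pole DNA synthesis. Pcna, Rfc3, Rfc4, Fen1 and Lig1 are of the clamp and the lagging strand, and Rrm1, Rrm2, Tyms and Tk1 of nucleotide supply. E2f1, E2f2, Ccne1 and Ccne2 are of the G1/S switch, and Uhrf1 guides DNA methylation onto new strands. All 33 were found among the 24445 gene symbols of the table, each taken as 1 transcript. The RNA came from primary tail tip fibroblasts of 2-month-old mice at passage 5, in a study of CRISPR/Cas9 treatment of progeria, the premature ageing disease that a mutant Lmna allele (Pro in the names) causes. Each culture received a lentivirus with an mCherry reporter and the guide RNA gLmna-1 or gLmna-2, both against Lmna, or gMock, a guide without a genomic match.

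The groups were Pro/Pro;Cas9/+ cells, homozygous for the mutant allele with 1 copy of Cas9, +/+;Cas9/+ cells, wild-type for Lmna and also with 1 copy of Cas9, and Pro/+; +/+ cells, heterozygous for the mutant allele and without Cas9, which the study used as a further negative control. They are called homozygous, wild-type and heterozygous cells below. Every genotype was represented by 2 mice and every mouse by 3 libraries, one per guide, which gave 9 groups of 2 libraries and 18 libraries from 6 mice. All groups, gMock included, were transduced, and since cultures were neither sorted nor selected, a library can hold untransduced cells. What drives Cas9 is not given in the sources used here. The name of heterozygous replicate 2 joins a pair of numbers, and the labels do not say whether it was 1 animal or a pool. Replicates 1 and 2 below are the 2 mice of a genotype.

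Replication is prepared in G1, when the origin recognition complex with Cdc6 and Cdt1 loads the MCM helicase onto DNA. Geminin (Gmnn) blocks Cdt1 once S phase has started. Cdc45 and the GINS complex then turn the helicase on, polymerase alpha with its primase starts each strand, and polymerases delta and epsilon extend them with the PCNA clamp, which the RFC complex loads. Many of these genes are transcribed at the G1/S border by E2F factors, and cells that have left the cycle express them weakly. In bulk RNA, fewer cycling cells and less RNA per cell cannot be told apart.

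A promoter window, 250 bases before to 50 after the gene start, taken from a table of RefSeq gene starts (GRCm38.p6), was used for 27 of the 33 genes. Windows of Gins1, Gins2, Pole, Gmnn, Mcm4 and Ccne2 were not used here. The motif TTTNNCGC, an E2F-like element searched on both strands, was in a window of 14 of the 27 genes (51.9%), against 5.9% of 27025 genes with a window. The genes that hold it were Cdc6, Cdt1, E2f2, Lig1, Mcm3, Mcm5, Mcm6, Mcm7, Orc1, Pola1, Pold1, Rfc3, Tyms and Uhrf1. CCAAT was in 17 of the 27 (63.0%), against 41.1% of all genes, and TTTGAA, an element resembling the cell cycle homology region, in 4 of the 27 (14.8%), against 20.2%. All searches were over both strands, matches of different motifs may share bases, and a match describes the sequence and is not a binding site.

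The 250 bases before the gene start are shown for Mcm5, Mcm6, Pola1 and Rrm2. Over the 18 libraries the first 3 followed the mean of the other genes (r = 0.97, 0.88 and 0.95), and Rrm2 did not (r = −0.02). These examples do not show that the motif goes with that pattern. Mcm2, Mcm10 and Prim1 (each r = 0.97) had no match in their windows, while Cdt1 (r = 0.30) held it. A window can belong to a start other than that of the transcript measured, as for Cdc6. The matches of E2f2 (r = −0.05) lie in such a window, and the window of its measured transcript has none. Capitals mark TTTNNCGC on either strand. In Mcm5 (chr8:75109259-75109508, plus strand, GRCm38.p6) matches on the 2 strands overlap and start 153 and 149 bases before the gene start. In Mcm6 (chr1:128359706-128359955, minus strand) they start 110, 106 and 47 bases before it, and in Pola1 (chrX:93632156-93632405, minus strand) the single match starts 138 bases before it. Rrm2 (chr12:24708004-24708253, plus strand) has these letters nowhere in the window.
Mcm5: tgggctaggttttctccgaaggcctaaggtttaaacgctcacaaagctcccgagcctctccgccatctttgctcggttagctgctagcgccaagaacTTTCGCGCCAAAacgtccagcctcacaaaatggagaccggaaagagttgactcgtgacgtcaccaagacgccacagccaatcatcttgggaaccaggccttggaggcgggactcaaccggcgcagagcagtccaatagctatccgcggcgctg
Mcm6: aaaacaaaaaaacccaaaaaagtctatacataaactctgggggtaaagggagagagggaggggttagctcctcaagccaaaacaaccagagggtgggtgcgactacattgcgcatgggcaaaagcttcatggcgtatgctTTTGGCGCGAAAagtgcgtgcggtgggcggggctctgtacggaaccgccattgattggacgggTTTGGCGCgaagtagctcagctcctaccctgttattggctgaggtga
Pola1: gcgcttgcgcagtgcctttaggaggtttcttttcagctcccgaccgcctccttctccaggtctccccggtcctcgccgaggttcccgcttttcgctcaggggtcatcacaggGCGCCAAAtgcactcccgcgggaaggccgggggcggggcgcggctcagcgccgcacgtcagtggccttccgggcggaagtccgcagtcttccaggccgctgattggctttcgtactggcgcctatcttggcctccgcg
Rrm2: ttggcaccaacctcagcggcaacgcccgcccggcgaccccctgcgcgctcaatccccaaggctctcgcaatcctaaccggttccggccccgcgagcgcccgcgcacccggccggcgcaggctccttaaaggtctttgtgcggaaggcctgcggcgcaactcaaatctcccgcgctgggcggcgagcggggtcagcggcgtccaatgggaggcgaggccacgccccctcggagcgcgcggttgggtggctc

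Depth, taken from the size of 1 read in the values, was 22424408 to 42622053 reads per library. The summed level of 12 fibroblast markers was 8771 to 12140 FPKM (fragments per kilobase of transcript, scaled to the size of the library), and all 12 passed the filter on low values. All 12 macrophage and leukocyte markers passed too, with sums of 72.5 to 1624 FPKM. Of 6 keratinocyte markers 2 passed, while Krt5, Krt14, Krt15 and Krt1 were under 1 FPKM in every library. Of 5 endothelial markers 0 passed, and Pecam1, Kdr, Tek and Vwf were under 1 FPKM in every library. All 7 cartilage and bone markers passed, with sums of 39.49 to 518 FPKM. Of 5 skeletal muscle markers 2 passed (sums up to 66.34 FPKM), and of 6 pigment and Schwann cell markers 4 (up to 24.23 FPKM). Lmna, the targeted gene, had 249 and 247 FPKM under gLmna-1 and gLmna-2 against 246 under gMock in homozygous replicate 1, and 217 and 310 against 370 in replicate 2. Its log2 difference, both guides against gMock, was −0.25 ± 0.15 (SE) in homozygous and −0.22 ± 0.15 in wild-type cells (limma, adjusted p = 0.743 and 0.762). Lmna had 272 to 381.4 FPKM in the 6 wild-type and 196 to 291 FPKM in the 6 heterozygous libraries. These levels do not measure editing.

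The replication genes spanned a wide range of levels. FPKM is per length, so genes can be set roughly side by side. Rrm2, the regulatory subunit of ribonucleotide reductase, was the highest with a mean of 60.8 FPKM over the 18 libraries. Rrm1, its catalytic subunit, followed at 24.2 FPKM and Pcna at 17.8 FPKM. The values come in parts of a transcript, and those of Pcna were uneven. Its median part had 2.96 to 10.1 FPKM over the libraries, against 13.1 to 24.6 FPKM for the transcript, so its rank is less certain. The lowest were E2f2, an activating E2F, at 0.31 FPKM, Cdc6 at 0.78 FPKM and Orc1, the largest origin recognition subunit, at 0.89 FPKM. E2f2 was the only one of the 33 that failed the filter of at least 1 FPKM in at least 2 libraries. It rested on 10 to 100 reads per library, Rrm2 on 1538 to 7759. The helicase subunits Mcm2 to Mcm7 had similar means, between 5.17 FPKM for Mcm5 and 9.43 FPKM for Mcm6.

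Most of these genes went up and down together from library to library, and cultures given the same guide differed from each other. The mean log2(FPKM + 1) over the 32 genes that passed was highest in the gMock libraries of wild-type replicate 2 (3.22) and homozygous replicate 2 (3.09). It was lowest in wild-type cells, at 2.26 and 2.27 under gLmna-1 and gLmna-2 of replicate 2 and 2.30 under gLmna-2 of replicate 1. The 6 heterozygous libraries lay between 2.63 and 2.86.

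**Figure D1:**
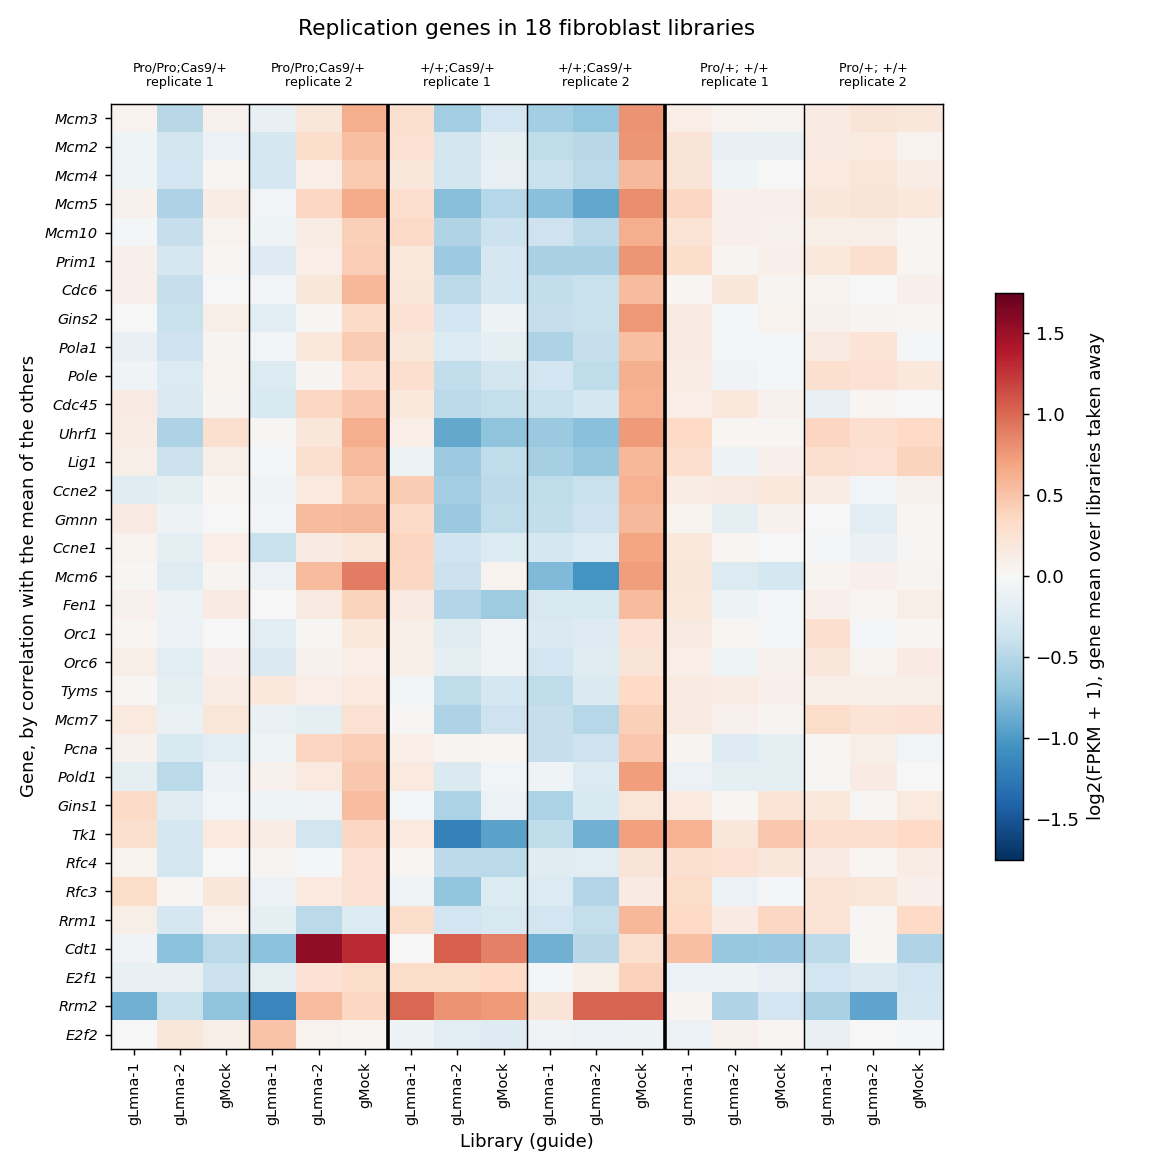
Each row is 1 of the 33 genes and each column 1 of the 18 libraries; colour is log2(FPKM + 1) with the gene's mean over all libraries taken away, and rows run from the gene most correlated with the mean of the others to the least. Most rows share the red of the gMock libraries of +/+;Cas9/+ and Pro/Pro;Cas9/+ replicate 2, while Cdt1, E2f1, Rrm2 and E2f2 at the bottom show other patterns.

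The spread between the 2 mice of a group was larger for these genes than for most genes. The median within-group SD was 0.31 on the log2 scale for the 32 genes, against 0.16 for all 12599 tested genes, and 31 of the 32 lay above that value. By genotype it was 0.27 against 0.17 for all tested genes in homozygous cells, 0.45 against 0.12 in wild-type cells and 0.11 against 0.14 in heterozygous cells. The replication genes thus varied more than the median gene between mice of both Cas9 genotypes, and not between the heterozygous mice.

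Within wild-type replicate 1 the mean was 2.87 under gLmna-1 and 2.30 under gLmna-2, against 2.45 under gMock. In wild-type replicate 2 it was 2.26 and 2.27 under the guides against 3.22 under gMock. The 2 wild-type mice thus went opposite ways under gLmna-1, and the same way under gLmna-2. In homozygous cells the values were 2.69 and 2.37 under gLmna-1 and gLmna-2 against 2.67 under gMock in replicate 1, and 2.50 and 2.86 against 3.09 in replicate 2. A different guide gave the lower level in each of these mice. In heterozygous cells they were 2.86 and 2.63 against 2.67 in replicate 1, and 2.76 and 2.73 against 2.74 in replicate 2, which shows the least movement of the 3 genotypes.

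**Figure D2:**
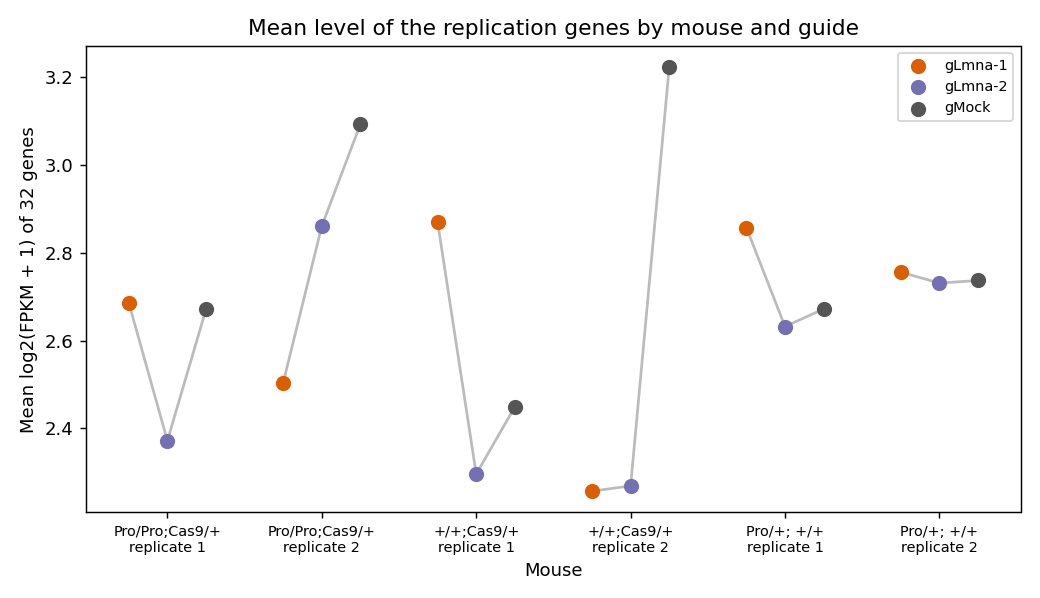
Each point is 1 library, placed by mouse on the x axis and by the mean log2(FPKM + 1) of the 32 replication genes that passed the filter on the y axis; colour gives the guide and grey lines join the 3 libraries of a mouse. The range within a mouse is 0.97 in +/+;Cas9/+ replicate 2 and 0.03 in Pro/+; +/+ replicate 2.

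The summed macrophage markers moved as well. In wild-type replicate 2 they were 172 and 226 FPKM under gLmna-1 and gLmna-2 against 72.5 FPKM under gMock, and in replicate 1 they were 443 and 416 FPKM against 259 FPKM. In homozygous cells they were 489 and 1624 FPKM against 630 FPKM in replicate 1, and 1230 and 808 FPKM against 759 FPKM in replicate 2. In heterozygous cells the sums were 330 and 634 FPKM against 356 FPKM in replicate 1, and 130 and 162 FPKM against 77.7 FPKM in replicate 2. In each homozygous and each heterozygous mouse the guide with the lower replication mean was the one with the higher macrophage sum. In each wild-type mouse it was the guide with the higher replication mean. The means of the 2 guides lay close in replicate 2 of the wild-type cells (2.26 and 2.27) and of the heterozygous cells (2.76 and 2.73). In wild-type replicate 1 both mean and sum were higher under gLmna-1 than under gMock. The part of macrophages in the replication levels was not tested. Over the 18 libraries, which share mice, the replication mean correlated with the mean log2 level of the macrophage markers at r = −0.15, of the fibroblast markers at r = −0.51, of the cartilage and bone markers at r = 0.47, and with depth at r = 0.03.

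Gene by gene, the contrast with gMock of the same mouse shows the same picture. Under gLmna-1, 31 of the 33 genes were higher than gMock in wild-type replicate 1 (median log2 difference 0.39) and 32 were lower in replicate 2 (median −0.98), so that 30 of the 33 went up in the first mouse and down in the other. Under gLmna-2, 27 were lower in replicate 1 (median −0.14) and all 33 in replicate 2 (median −0.93). In homozygous cells, gLmna-1 left 17 lower and 16 higher in replicate 1 (median −0.01) and 30 lower in replicate 2 (median −0.52). Under gLmna-2, 30 were lower in each mouse (medians −0.30 and −0.25), and 29 were lower in both. Over all 12599 tested genes the medians of these 8 contrasts lay between −0.06 and 0.04. In heterozygous cells the 4 medians over the 33 genes were 0.17 and 0.02 under gLmna-1 and −0.01 and 0.02 under gLmna-2. Over all tested genes they lay between −0.06 and −0.00. Under gLmna-1, 27 of the 33 were higher in replicate 1, where 63.8% of all tested genes were lower. In replicate 2, 19 were higher, and 17 were higher in both mice. Under gLmna-2, 16 and 17 were higher in replicates 1 and 2.

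**Figure D3:**
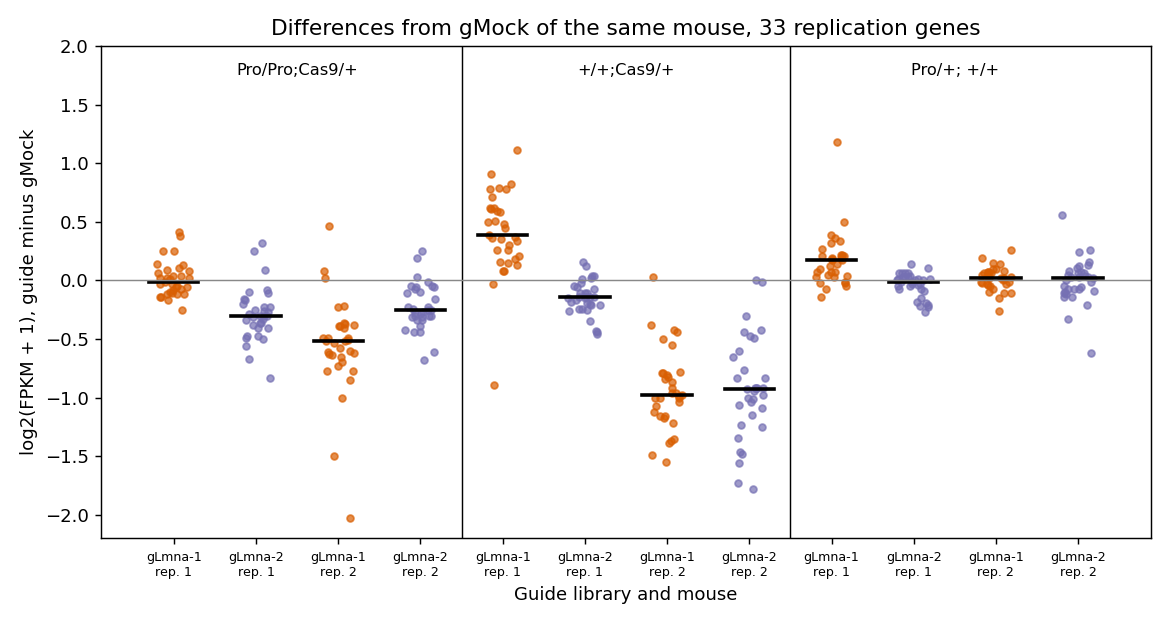
Each point is 1 of the 33 genes, at its log2(FPKM + 1) in the guide library minus that in the gMock library of the same mouse; black bars are medians and the x axis gives the guide and mouse (rep., replicate). The cloud is above 0 under gLmna-1 in +/+;Cas9/+ replicate 1 (median 0.39) and below 0 in replicate 2 (median −0.98).

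Mcm3, a helicase subunit, followed the mean of the other genes most closely (r = 0.98 over the 18 libraries). It had 7.57 and 4.88 FPKM under gLmna-1 and gLmna-2 against 7.64 FPKM under gMock in homozygous replicate 1, and 6.51 and 8.46 FPKM against 11.8 FPKM in replicate 2. In wild-type cells it had 8.99 and 4.42 FPKM against 5.51 FPKM in replicate 1, and 4.47 and 4.15 FPKM against 13.2 FPKM in replicate 2. The gMock library was the highest in replicate 2 of both Cas9 genotypes, and in wild-type replicate 1 the gLmna-1 library was. In heterozygous cells all 6 values lay between 7.55 and 8.64 FPKM. Mcm2, Mcm4, Mcm5, Mcm10 and the primase subunit Prim1 followed at r = 0.97, and in all 28 of the 33 genes reached 0.7 and 14 reached 0.9. Over the 528 pairs of genes the median r was 0.77 and 90.7% of pairs were above 0. These points share libraries and mice, so they are a description.

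The question put to both guides together was whether they changed these genes relative to gMock. In homozygous cells 0 of the 32 genes passed the threshold (limma, adjusted p under 0.05), where 0.0794% of the 12599 tested genes were called, and 0 had an unadjusted p under 0.05. All 32 fitted log2 differences were negative, with a median of −0.295, against −0.006 for all tested genes. The 5 genes with the smallest p were Mcm4 (−0.40 ± 0.23 SE), Pold1, the catalytic subunit of polymerase delta (−0.29 ± 0.18), Mcm7 (−0.29 ± 0.19), Gins2 (−0.36 ± 0.24) and Uhrf1 (−0.50 ± 0.35), with adjusted p of 0.736 to 0.799. Mcm4 had 8.61 and 7.09 FPKM under gLmna-1 and gLmna-2 against 9.42 FPKM under gMock in replicate 1, and 7.20 and 10.1 FPKM against 13.0 FPKM in replicate 2. In each mouse the gMock value was the highest, and over both mice the groups overlapped. By role the medians were −0.40 for the 6 MCM subunits, −0.30 for helicase activation, −0.31 for polymerases and primase, −0.19 for the clamp and lagging strand, −0.17 for licensing and −0.20 for nucleotide supply.

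In wild-type cells, too, 0 of the 32 genes passed for both guides against gMock, where 0.849% of tested genes were called. Of the 32, 3 had an unadjusted p under 0.05, as did 959 of the 12599 tested genes, so the count is near the share of all genes. The 3 were Mcm6 (−0.85 ± 0.32 SE), Pold1 (−0.45 ± 0.18) and the GINS subunit Gins2 (−0.56 ± 0.24). Rfc3, a clamp loader subunit (−0.32 ± 0.15), and Prim1 (−0.64 ± 0.30) came next, and the 5 adjusted p were 0.595 to 0.665. Mcm6 had 11.7 and 6.65 FPKM under gLmna-1 and gLmna-2 against 9.32 FPKM under gMock in replicate 1, and 4.83 and 3.78 FPKM against 15.4 FPKM in replicate 2. The guide libraries lay on both sides of gMock in the first mouse and far below it in the other. All 32 fitted differences were negative here as well, with a median of −0.385 against −0.022 for all tested genes. Without the gMock library of replicate 2, 5 of the 32 fitted differences were negative in place of 32, so the common direction rested on that library.

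In heterozygous cells, which carry no Cas9, 0 of the 32 passed for both guides against gMock, where 0% of tested genes were called, and 0 had an unadjusted p under 0.05. Of the fitted differences 8 were negative and 24 positive, with a median of 0.03, against −0.041 for all tested genes, of which 65.5% were negative. The 5 smallest p belonged to Rfc3 (0.13), Cdt1 (0.45), Rrm1 (−0.17), Orc1 (0.11) and Pola1 (0.16), each with an adjusted p of 0.996. The difference of this effect between homozygous and wild-type cells was called for 0 of the 32, against 0.0476% of tested genes, and 0 had an unadjusted p under 0.05. The median was 0.15, with Pcna (0.30), Mcm6 (0.44), E2f1 (0.18), Rfc3 (0.19) and Tyms (0.21) first by p. Between homozygous and heterozygous cells it was called for 0 of the 32, against 0% of tested genes, and 0 had an unadjusted p under 0.05. Of the 32 differences 31 were negative (median −0.28), with Pola1 (−0.49), Mcm4 (−0.47), Pold1 (−0.34), Orc1 (−0.27) and Mcm7 (−0.34) first.

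Each guide singly gave the same count. For gLmna-1 against gMock, 0 of the 32 passed in homozygous cells, where 0.976% of tested genes were called. Rrm2 (−0.82 ± 0.34 SE, limma, adjusted p = 0.246) alone of the 32 had an unadjusted p under 0.05, as did 2265 of the 12599 tested genes. It was ahead of Mcm4 (−0.44), Mcm6 (−0.51), Cdt1 (−0.81) and Mcm2 (−0.41). In wild-type cells 0 passed, where 0.691% were called, and 0 had an unadjusted p under 0.05, with Cdt1 (−1.005), Pcna (−0.39), Mcm6 (−0.60), Gins2 (−0.41) and E2f1 (−0.23) first. For gLmna-2 against gMock 0 passed in homozygous cells, where 0.357% were called, and 0 had an unadjusted p under 0.05, with Mcm7 (−0.38), Rfc4 (−0.30), Pold1 (−0.34), Uhrf1 (−0.63) and Gins1 (−0.39) first. In heterozygous cells 0 passed for either guide, where 0% were called, and 0 had an unadjusted p under 0.05. Rfc3 (0.24), Orc1 (0.22), Cdt1 (0.63), Pola1 (0.19) and Mcm2 (0.23) came first for gLmna-1, and Rrm2 (−0.40), Rrm1 (−0.28), Gins1 (−0.18), Orc6 (−0.11) and Gmnn (−0.22) for gLmna-2.

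The largest number of low p-values was found for gLmna-2 against gMock in wild-type cells. There, 11 of the 32 genes had an unadjusted p under 0.05, among 953 of the 12599 tested genes, and 0 passed after adjustment, where 0.564% of tested genes did. The first 5 were Rfc3 (−0.55 ± 0.17 SE), Mcm6 (−1.11 ± 0.37), Pold1 (−0.59 ± 0.21), Gins2 (−0.70 ± 0.28) and Prim1 (−0.85 ± 0.35), with adjusted p of 0.445 to 0.640. Rfc3 had 4.68 FPKM under gLmna-2 against 6.70 FPKM under gMock in replicate 1, and 5.40 FPKM against 9.06 FPKM in replicate 2, without overlap of the 2 groups. The number that passed after adjustment was 7 without the gMock library of replicate 1. Without that of replicate 2 it was 0, and 16 of the 32 differences were negative in place of 31. Over the libraries left out in turn, Mcm6 ran between −1.89 and −0.32, Pold1 between −1.04 and −0.15, Gins2 between −1.30 and −0.10, Prim1 between −1.55 and −0.14 and Rfc3 between −0.74 and −0.35, each nearest to 0 without the gMock library of replicate 2.

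Guide gLmna-2 was set against gLmna-1 as well. In homozygous cells gLmna-2 against gLmna-1 gave 9.95% of tested genes as called, the most of any comparison, and 0 of the 32 replication genes. Rrm2 was the nearest (1.07 ± 0.34 SE, adjusted p = 0.0791), followed by E2f1 (0.22), Rrm1 (−0.36), Tk1 (−0.52) and Cdt1 (0.80), and the median over the 32 was −0.01. The number that passed was 3, Rrm2, E2f1 and Cdt1, without the gLmna-1 library of replicate 1, and the same omission gave 2, Rrm2 and Cdt1, for gLmna-1 against gMock. In wild-type cells 0 of 32 passed, where 0% were called, and 1 had an unadjusted p under 0.05, as did 1009 of the 12599 tested genes. It was Rfc3 (−0.45), followed by Tk1 (−0.88), Mcm10 (−0.47), Ccne2 (−0.50) and Mcm7 (−0.33). In heterozygous cells 0 passed, where 0% were called, and 0 had an unadjusted p under 0.05, with Rrm2 (−0.47), Orc1 (−0.23), Rfc3 (−0.22), Orc6 (−0.16) and Rrm1 (−0.21) first. The difference of this contrast between homozygous and wild-type cells was called for 0 of the 32, against 0.0476% of tested genes, and 0 had an unadjusted p under 0.05, with Rfc3 (0.43), Rrm2 (0.79), Ccne2 (0.65), Mcm6 (0.72) and Gmnn (0.64) first.

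Genotypes were compared under gMock, which asks whether the progeria allele itself goes with another level of these genes. Between homozygous and wild-type cells 0 of the 32 passed, where 0.397% of tested genes were called. Rrm2 alone of the 32 had an unadjusted p under 0.05 (−1.06 ± 0.33 SE, limma, adjusted p = 0.331), as did 1308 of the 12599 tested genes. Rrm2 had 32.7 and 69.2 FPKM in the 2 homozygous libraries against 90.9 and 110 FPKM in the 2 wild-type libraries. The difference was −0.53 without homozygous replicate 1 and −1.59 without homozygous replicate 2. E2f1 (−0.41), Rfc3 (0.28), Rfc4 (0.26) and Uhrf1 (0.43) came next, and the median over the 32 was 0.10. Between homozygous and heterozygous cells 0 passed, where 0% were called, and 0 had an unadjusted p under 0.05, with Cdt1 (1.01), Mcm6 (0.60), Rrm1 (−0.45), Rfc3 (0.19) and Pcna (0.24) first and a median of 0.18. In this fit 4 of the 32 differences were negative, while 19 were without homozygous replicate 2, and 21 when the 3 libraries of each mouse were averaged, so the common direction did not hold. This comparison also differs in Cas9, which the heterozygous cells lack. A second test, on the recovered reads (limma voom), called 0 of the 32 in each of the 17 comparisons, as the test on log2 FPKM did.

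Rrm2, Cdt1, E2f1 and E2f2 stood apart from the common pattern. Their correlations with the mean of the other genes were −0.02, 0.30, 0.14 and −0.05, while Rrm1 reached 0.58. These values include differences in level between mice. With the mean of each mouse taken away they were 0.44, 0.41, 0.63 and −0.39, still the lowest, and Rrm1 reached 0.81. Between single genes, with the level of each mouse left in, r was 0.86 for Rrm2 and E2f1. It was 0.68 for Cdt1 and E2f1 and 0.51 for Cdt1 and Rrm2, while Rrm1 and Rrm2, the subunits of 1 enzyme, had r = −0.18. These 4 genes were singled out after their values were seen.

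Rrm2 was higher in most wild-type libraries than in any other library. It had 29.5 and 40.95 FPKM under gLmna-1 and gLmna-2 against 32.7 FPKM under gMock in homozygous replicate 1, and 23.7 and 79.0 FPKM against 69.2 FPKM in replicate 2. In wild-type cells it had 109 and 93.4 FPKM against 90.9 FPKM in replicate 1, and 63.2 and 110 FPKM against 110 FPKM in replicate 2. All but 1 of the wild-type libraries lay above every library of the other genotypes. In heterozygous cells it had 27.8 to 55.6 FPKM. The gLmna-2 library of wild-type replicate 2, with one of the lowest replication means, still had one of the highest Rrm2 levels. With the 3 libraries of each mouse averaged, the difference between homozygous and wild-type cells was −1.16 (limma, adjusted p = 0.0835).

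Cdt1, the licensing factor that loads the helicase, varied over the widest range of the genes that passed, 6.81-fold. It had 5.37 and 3.02 FPKM under gLmna-1 and gLmna-2 against 3.79 FPKM under gMock in homozygous replicate 1, and 3.01 and 18.4 FPKM against 15.3 FPKM in replicate 2. In wild-type cells it had 5.57 and 12.6 FPKM against 11.2 FPKM in replicate 1, and 2.70 and 3.75 FPKM against 7.04 FPKM in replicate 2. The 4 highest values were thus in the gLmna-2 and gMock libraries of 1 mouse per Cas9 genotype, and the replication mean of these 4 libraries ran between 2.30 and 3.09. In heterozygous cells the gLmna-1 library of replicate 1 had 8.56 FPKM and the other 5 had 3.20 to 5.73 FPKM. Geminin, the inhibitor of Cdt1, kept to the common pattern (r = 0.88), and its correlation with Cdt1 was 0.31.

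E2f1, the activating transcription factor, was steadier, with 10.5 to 18.8 FPKM over the 18 libraries. It had 12.7 and 12.7 FPKM under gLmna-1 and gLmna-2 against 10.5 FPKM under gMock in homozygous replicate 1, and 12.2 and 16.8 FPKM against 17.6 FPKM in replicate 2. In wild-type cells the 6 values were 13.8 to 18.8 FPKM, and in heterozygous cells 10.9 to 13.1 FPKM. Its lowest wild-type value was above every heterozygous value. E2f2 stayed under 1 FPKM everywhere, with its highest value, 0.84 FPKM, in the gLmna-1 library of homozygous replicate 2.

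**Figure D4:**
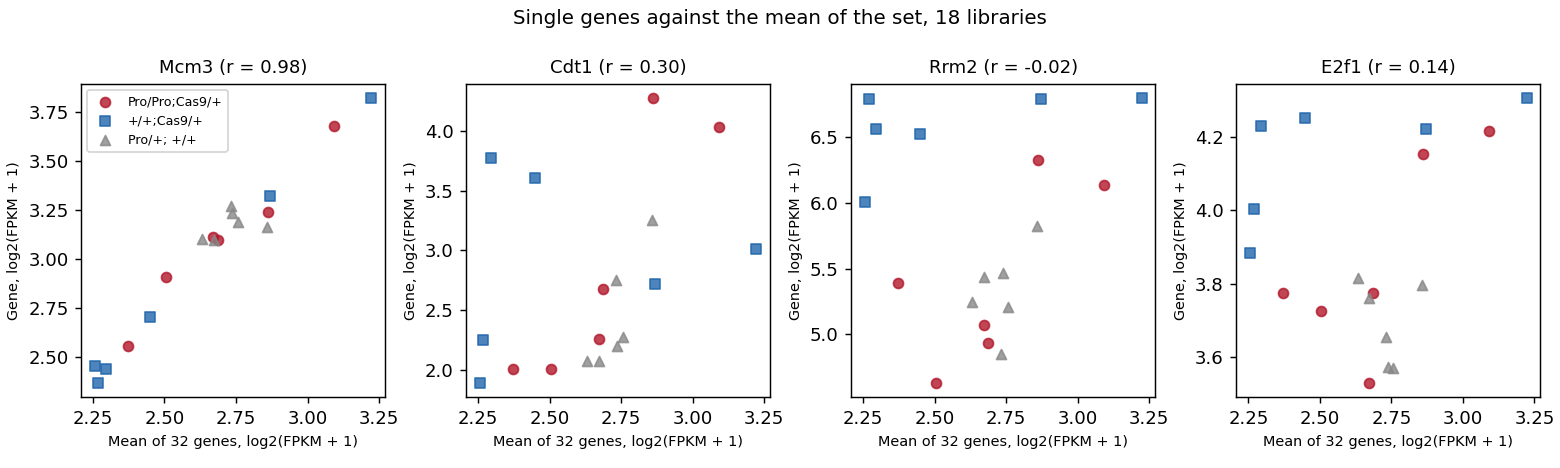
Each panel plots log2(FPKM + 1) of 1 gene against the mean of the 32 replication genes in the 18 libraries, with symbols and colours by genotype; r in the title is with the mean of the other genes. Mcm3 rises along a line (r = 0.98), whereas Rrm2 is above every other library in all but 1 of the +/+;Cas9/+ libraries and Cdt1 shows no such line (r = 0.30).

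Within the Rrm2 transcript, 1 exon differed between mice. The table gives each transcript in parts, and part 7 of 12 is exon 6 of 10, a coding exon at chr12:24711447-24711541 on the plus strand (GRCm38, GENCODE vM21). Its reference sequence is shown because this stretch, and not the whole transcript, was low in 1 mouse, and no base in it is marked.
Rrm2 exon 6: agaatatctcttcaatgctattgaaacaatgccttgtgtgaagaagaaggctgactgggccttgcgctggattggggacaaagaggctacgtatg

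In homozygous replicate 2 this part had 2.79, 12.04 and 6.50 FPKM under gLmna-1, gLmna-2 and gMock, while the next part had 31.3, 107 and 97.8 FPKM. As a ratio to the median part of the transcript this was 0.0771 to 0.134 in the 3 libraries of that mouse. In the other 15 libraries the ratio was 0.40 to 0.957: 0.40 to 0.558 in homozygous replicate 1, 0.509 to 0.630 and 0.455 to 0.530 in the 2 wild-type mice, and 0.833 to 0.957 and 0.471 to 0.622 in heterozygous replicates 1 and 2. The ratio thus went with the mouse and not with the guide, with homozygous replicate 2 lowest and heterozygous replicate 1 highest. The low values rested on 8 to 27 reads. It was the only part of at least 50 bases in the 33 transcripts for which the 3 libraries of a mouse lay apart from all others by a factor of at least 2, a rule set after the values were seen. No test was made of it, and its cause was not tested. Another 11 parts of these transcripts, such as part 11 of Rrm2 and part 3 of Pcna, were under 10% of the median part in every library, which understates the level of those transcripts. The cause was not tested.

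**Figure D5:**
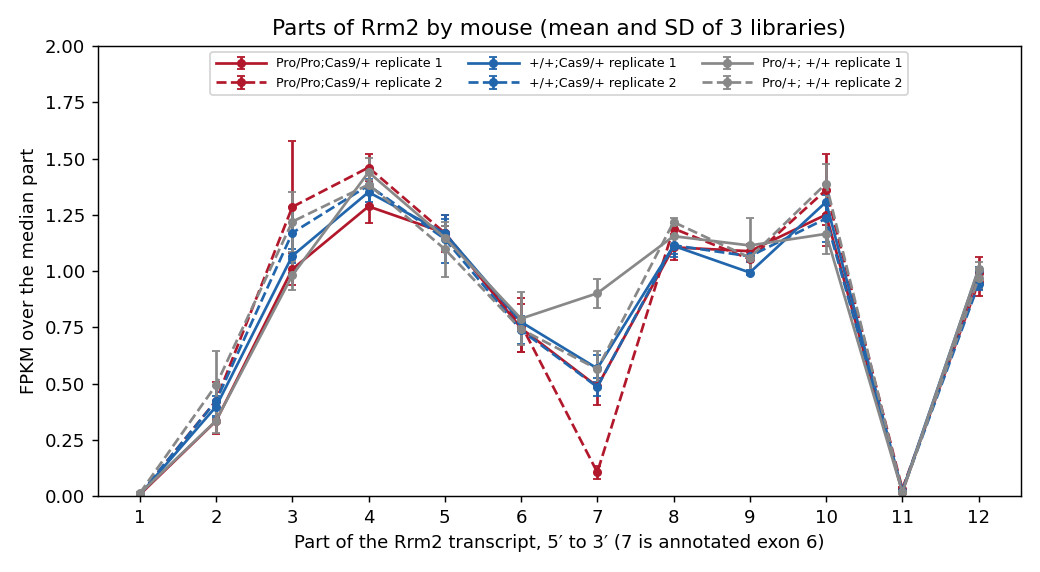
The x axis gives the 12 parts of the Rrm2 transcript from 5′ to 3′ and the y axis their FPKM divided by that of the median part in the same library; points are means and bars SDs of the 3 libraries of a mouse, 1 line per mouse. At part 7 the line of Pro/Pro;Cas9/+ replicate 2 falls to 0.0771 to 0.134 and that of Pro/+; +/+ replicate 1 stays at 0.833 to 0.957, with the other 4 mice between.

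Other genes of the pathway gave a weaker form of the same picture. Of 51 further replication genes, such as the remaining subunits of ORC, RFC and the polymerases, 47 passed the filter. The mean log2 level of all 51 correlated with that of the 32 at r = 0.98 over the 18 libraries. For both guides against gMock, 0 of the 47 passed in each genotype, with medians of −0.15 in homozygous, −0.25 in wild-type and −0.01 in heterozygous cells. In that order 0, 3 and 0 of them had an unadjusted p under 0.05, as did 1055, 959 and 397 of the 12599 tested genes. Pold4, the small subunit of polymerase delta, was the only one of the 47 to pass in any of the 17 comparisons, for gLmna-2 against gLmna-1 in homozygous cells. That is 2.13% of the list, below the 9.95% of all tested genes called there. Pold4 had 54.5 and 105 FPKM under gLmna-2 against 46.8 and 42.3 FPKM under gLmna-1 in the 2 homozygous mice (0.75 ± 0.20 SE, limma, adjusted p = 0.0429). In the 2 wild-type mice it was also higher under gLmna-2, with 92.5 and 62.1 FPKM against 67.2 and 53.2 FPKM, and not called. In the 2 heterozygous mice it had 43.35 and 44.1 FPKM against 39.5 and 45.9 FPKM. Of 21 further G1/S control genes, all of which were tested, 2 passed for gLmna-2 against gLmna-1 in homozygous cells, Ccnd1 and Cdk4. Their share, 9.52%, is near the 9.95% of all tested genes and so is no result about the list. For gLmna-1 against gMock in homozygous cells 1 of the 21 passed, Ccnd1 (4.76%, against 0.976% of all tested genes).

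Ccnd1 encodes cyclin D1, which starts the passage from G1 to S together with the kinase Cdk4. In homozygous replicate 1 it had 93.6 FPKM under gLmna-1 and 198 FPKM under gLmna-2, against 128 FPKM under gMock, and in replicate 2 it had 120 and 300 FPKM against 241 FPKM. It was lowest under gLmna-1 and highest under gLmna-2 in both mice. Under gLmna-1 it fell relative to gMock (−0.72 ± 0.13 SE, limma, adjusted p = 0.0421), and under gLmna-2 it was higher than under gLmna-1 (1.19 ± 0.13, adjusted p = 0.00301). In wild-type cells it had 274 to 340 FPKM and in heterozygous cells 87.2 to 141 FPKM. Cdk4 had 139 and 122 FPKM under gLmna-2 against 190 and 140 FPKM under gLmna-1 in the 2 homozygous mice (−0.32 ± 0.08, adjusted p = 0.0443). The replication genes did not follow Ccnd1 there: their mean under gLmna-2 was below that under gLmna-1 in replicate 1 (2.37 against 2.69) and above it in replicate 2 (2.86 against 2.50).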

How the data were processed

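RNA was measured in 18 libraries of transduced primary mouse fibroblasts. The authors deposited FPKM values that HOMER computed for exons of 36795 transcripts, listed in 404759 parts per the file headers. Per the submitters' processing notes FastQC 0.11.2 and STAR 2.4.0k were used, with mm10 as the build. Part lengths, another deposited quantity, served to join the parts. Another 6 library columns match no labelled sample and were not used. Whether strand was used, and how reads with several matches were counted, is not given in the sources used here, so antisense or overlapping genes and copies such as the Pcna and Tyms pseudogenes may share reads.

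Symbols came from RefSeq for 36474 transcripts and GENCODE for 194, while 127 had none. The transcript with the highest mean FPKM stood for each symbol, a choice for 15 of the 33 genes. All FPKM values tested (100%) were whole multiples of a smallest step within a tolerance of 0.05, which gave the depth. It is not known if that step is 1 read or 1 fragment, and "read" is used here.

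Tests were run on log2(FPKM + 1), which understates fold changes of low genes, for the 12599 genes reaching 1 FPKM in 2 or more libraries. Linear models with trended empirical Bayes came from limma 3.58.1 under R 4.3.3. Guide effects used all 18 libraries and a fixed term for each mouse as the block (6 residual degrees of freedom), since the labels name the mouse of each library. A gene thus had the same fitted spread in all genotypes. For the replication genes the median within-group SD was 0.45 in wild-type, 0.27 in homozygous and 0.11 in heterozygous cells. Their SEs and p-values can therefore be too small in wild-type cells and too large in heterozygous cells. Genotype effects used the 6 gMock libraries (3 degrees of freedom). Benjamini-Hochberg adjustment covered the 12599 genes, the threshold was 0.05, and ± marks the SE of the fit. Over the 17 comparisons, 173 to 3181 of the 12599 genes had an unadjusted p under 0.05. With 2 mice per genotype the p-values rest on few animals. The fits were tried on simulated data with independent noise per gene and the same spread in all genotypes. The replication genes moved together and differed in spread, so that trial does not check their p-values. Python 3.11.15 with pandas 2.3.3, numpy 2.4.6 and matplotlib 3.10.9 made tables and figures.

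Alternatives were a pseudocount of 0.25, no filter or a minimum of 5 FPKM, median-of-ratios scaling, the longest transcript, limma voom on recovered reads, other blocks and sample sets, and leaving out each library. Genes, lists and tests were chosen with earlier results of these data known. Per comparison, genes past the threshold were to be named, or, if fewer than 5 passed, the 5 with the smallest p. The 3 highest and 3 lowest genes by level and Lmna were named too. The genes that departed from the common pattern, the motif examples and the Rrm2 part were picked after their values were seen.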

Additional observations from a re-analysis of the deposited data

Results flagged for a closer look

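In 3 genes every guide library of the homozygous mice lay below the gMock library of its mouse, while every guide library of the heterozygous mice lay at or above it. In heterozygous replicate 1 under gLmna-2 the excess was 0.00 for Mcm5 and Pola1 and 0.01 for Mcm10 after rounding, so the opposite direction there rests on almost no difference. The mean difference between the genotypes, on the log2(FPKM + 1) scale, was −0.52 for Mcm5 (−0.43 in homozygous and 0.08 in heterozygous cells), −0.41 for Mcm10 (−0.33 and 0.08) and −0.49 for Pola1 (−0.33 and 0.16). These 3 were picked for their opposite directions, which were not tested as such. In homozygous cells 14 of the 33 genes were lower than gMock in all 4 guide libraries, and in heterozygous cells 4 were higher in all 4. The 2 guide libraries of a mouse share its gMock library. How many of all tested genes show such directions was not counted, so the number is no result about these genes. The limma fit of the difference called 0 of the 32 genes. The 2 genotypes also differ in Cas9, so allele and transgene cannot be told apart.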

How the results depend on the processing

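The counts of replication genes past the threshold were 0 in each of 17 comparisons. They stayed 0 under the other pseudocount, filters, scaling, transcript choice, voom, blocks and sample sets. The 85 named differences of these genes kept direction and side of the threshold in each setting that gave them a value. Ccnd1, Cdk4, Pold4 and Lmna were not followed through these settings or with libraries left out. All but 1 of the calls of Ccnd1, Cdk4 and Pold4 lay just under the threshold. The minimum of 5 FPKM left 18 of the 85 without a value, those of Gins1, Mcm10, Orc1, Pola1, Pold1, Rfc4 and Tyms. Leaving out the mouse block gave 0 calls in the 15 guide comparisons (no replicate block), with a smallest adjusted p of 0.203 for gLmna-2 against gLmna-1 in homozygous cells. Adding a replicate block to the gMock fits gave 0 calls, with smallest adjusted p of 0.341 against wild-type and 0.998 against heterozygous cells.

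The share of negative differences did change: for homozygous against heterozygous cells under gMock it was 21 of 32 with the libraries of each mouse averaged, in place of 4. Leaving out 1 library changed more. Where it leaves 1 sample in an arm, that sample is assumed to vary like the other groups. The count ranged from 0 to 2 for gLmna-1 against gMock and from 0 to 3 for gLmna-2 against gLmna-1 in homozygous cells, highest without the gLmna-1 library of replicate 1, and from 0 to 7 for gLmna-2 against gMock in wild-type cells, highest without the gMock library of replicate 1. The number of negative differences for both guides ranged from 26 to 32 in homozygous, 5 to 32 in wild-type and 6 to 16 in heterozygous cells.

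Named differences that changed sign had these ranges. For both guides in wild-type cells they were −0.89 to 0.00 for Pold1, −1.16 to 0.04 for Gins2 and −1.35 to 0.06 for Prim1. For gLmna-1 against gMock in homozygous cells they were −2.15 to 0.54 for Cdt1 and −0.85 to 0.02 for Mcm2, and for gLmna-2 against gLmna-1 there −0.08 to 0.51 for E2f1 and −0.54 to 2.15 for Cdt1. For gLmna-1 against gMock in wild-type cells they were −0.84 to 0.06 for Pcna, −1.38 to 0.19 for Mcm6 and −1.02 to 0.19 for Gins2, and for gLmna-2 against gLmna-1 there −1.09 to 0.15 for Mcm10, −1.27 to 0.26 for Ccne2 and −0.75 to 0.09 for Mcm7. For gLmna-1 in heterozygous cells Cdt1 ran between −0.06 and 1.32. For the difference of the effect of both guides, homozygous minus wild-type, they were −0.14 to 0.75 for Pcna, −0.34 to 1.23 for Mcm6, −0.08 to 0.44 for E2f1 and −0.17 to 0.59 for Tyms. For that of gLmna-2 against gLmna-1 they were −0.11 to 1.41 for Ccne2 and −0.07 to 1.35 for Gmnn. Under gMock they were −0.09 to 0.61 for Rfc4 and −0.29 to 1.16 for Uhrf1 against wild-type, and −0.07 to 0.54 for Pcna against heterozygous cells. The cause was not tested. Low depth limits E2f2, with 10 to 100 reads, most.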
